A study of Mus musculus with 2 samples.

Results

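The 10 genes described here are core and output genes of the circadian clock: *Per1*, *Per2*, *Per3*, *Cry1*, *Cry2*, *Dbp*, *Nr1d1*, *Nr1d2*, *Arntl* and *Clock*. They were taken by symbol from the 32285 genes of the count matrices, and each symbol matched 1 gene. The counts come from single-nucleus RNA sequencing of hippocampus from male mice aged 9 months, with 1 library for each of 2 genotypes. PS19 mice (PS19 Zbp1-WT) carry a P301S mutant human tau transgene, expressed under the *Prnp* promoter, and an intact *Zbp1* gene. PZKO mice (PS19 Zbp1-KO) carry the same transgene and lack *Zbp1*, so both groups are tau mice and no mouse without the transgene is among them. The hippocampi of 5 males were combined for each library, though the protocol also says that single animals were handled apart, and no label ties a nucleus to an animal. The mice lived on a light/dark cycle, and the time of day at which they were collected is not given in the sources used here. Because each genotype has a single library, no difference has a replicate behind it. No test between genotypes was made, and a difference between the libraries cannot be told apart from one between genotypes, pools or collection times.

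The mammalian clock is a transcriptional feedback loop that runs in nearly every cell. CLOCK and ARNTL (BMAL1) bind E-boxes and activate the *Per* and *Cry* genes, whose proteins then repress that activation. A second loop runs through *Nr1d1* and *Nr1d2* (REV-ERB alpha and beta), which repress *Arntl* at ROR response elements, and *Dbp* encodes an activator that carries the rhythm to output genes through D-boxes. In tissues with a running clock, the E-box targets peak close to each other in the day and *Arntl* peaks in the opposite phase. *Per1*, *Per2*, *Per3*, *Cry2*, *Dbp*, *Nr1d1* and *Nr1d2* were read together as 7 in-phase genes, a broad group whose members need not move together. *Clock*, the partner of *Arntl*, was counted with it, which gives 2 anti-phase genes. *Cry1*, which lags behind the other repressors, was kept apart.

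Promoter windows were searched for the letters of these elements. The windows run from 250 bases before to 50 bases after each RefSeq start in GRCm38.p6, and 13 windows covered 9 of the 10 genes. *Per2* is not in the table. The E-box CACGTG was found in windows of 2 genes, *Per1* and *Cry1*, and the E-prime box CACGTT in those of *Cry1*, *Cry2* and *Nr1d1*. The D-box core TTATGTA or TTACGTA was found 2 times in the window of *Per3*. The core of the ROR response element, TAGGTCA or TGGGTCA, was found in 1 of the windows of *Arntl*. Counted by window, 2 of the 13 held the E-box, 3 the E-prime box, 1 the D-box core and 1 the ROR core. Both strands were searched. Of all 32851 promoter windows in the table, 7.15% hold the E-box, 4.68% the E-prime box, 3.09% the D-box core and 6.45% the ROR core. A match describes these letters in this window and no binding was measured. The stretches below are those that carry a match, 5′ to 3′ on the strand of the gene, with the matched letters in capitals. *Per1* is shown from chr11:69098733-69098838 on the plus strand with its E-box at position -166 from the start, *Cry2* from chr2:92434180-92434285 on the minus strand with an E-prime box at -166, *Cry1* from chr10:85185059-85185183 on the minus strand with an E-prime box at -79 and an E-box at -60, and *Nr1d1* from chr11:98775378-98775455 on the minus strand with an E-prime box at -28. *Per3* is shown from chr4:151044767-151044915 on the minus strand with D-box cores at -205 and -158, and *Arntl* from chr7:113207531-113207557 on the plus strand with a ROR core at position 30 after the start.
Per1: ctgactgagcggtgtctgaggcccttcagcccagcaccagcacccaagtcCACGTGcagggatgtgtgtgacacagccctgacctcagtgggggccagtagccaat
Cry1: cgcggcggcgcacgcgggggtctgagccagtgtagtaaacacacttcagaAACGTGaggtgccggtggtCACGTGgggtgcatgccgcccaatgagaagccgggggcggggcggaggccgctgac
Cry2: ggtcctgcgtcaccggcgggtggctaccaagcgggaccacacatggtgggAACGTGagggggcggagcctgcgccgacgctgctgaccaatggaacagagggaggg
Nr1d1: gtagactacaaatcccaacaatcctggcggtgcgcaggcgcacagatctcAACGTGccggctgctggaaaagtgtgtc
Per3: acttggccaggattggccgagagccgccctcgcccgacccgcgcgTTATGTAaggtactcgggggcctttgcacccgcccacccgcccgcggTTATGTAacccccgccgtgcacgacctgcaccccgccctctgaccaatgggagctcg
Arntl: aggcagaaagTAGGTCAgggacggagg
The capitals AACGTG in *Cry1*, *Cry2* and *Nr1d1* are the E-prime box on the other strand. *Dbp*, *Nr1d2* and *Clock* held none of these letters in their windows.

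The 10 genes differ widely in length, which matters for nuclear RNA, where unspliced transcripts are counted too. In GENCODE M21 (GRCm38), *Dbp* is the shortest, with 5.12 kb at chr7:45705088-45710203, followed by *Nr1d1* with 7.40 kb at chr11:98767932-98775333 and *Per1* with 14.7 kb at chr11:69095217-69109960. The longest are *Clock*, with 94.9 kb at chr5:76209868-76304792, and *Arntl*, with 107 kb at chr7:113207465-113314126. *Nr1d1* overlaps *Thra*, *Dbp* overlaps *Sphk2*, *Cry2* overlaps D930015M05Rik and *Arntl* overlaps Gm45355, each on the opposite strand, and *Per3* overlaps *Camta1* on the same strand. Reads from such pairs may have been split or left out by the counting, whose handling of them is not given in the sources used here.

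The PS19 library held 116488513 unique molecular identifiers (UMIs, each standing for 1 captured RNA molecule) in 11469 nuclei, and the PZKO library 171167884 UMIs in 10920 nuclei. After filtering, 9590 and 9307 nuclei were kept, and 29 cell barcodes occurred in both libraries. They formed 36 clusters, and 31 of these were named from marker genes. A class name used here means that its clusters resembled that cell type by their markers. In 11 classes with at least 50 nuclei per library, every fixed marker was detected in both libraries. Unnamed clusters held 5.78% of PS19 and 5.49% of PZKO nuclei. *Zbp1* itself had 92 UMIs in PS19 and 38 in PZKO nuclei (48 and 17 in microglia), and where the deletion lies relative to the counted 3′ ends is not given in the sources used here. The make-up of the excitatory class differed. Dentate granule-like nuclei were 35.4% of the excitatory nuclei in PS19 and 16.6% in PZKO. Nuclei of excitatory clusters whose dentate, CA1 and CA3 marker scores stayed under the threshold for a name, called other excitatory nuclei below, were 43.3% and 64.5%. RNA of *Ttr*, which choroid plexus cells make in bulk, was also counted outside that class, with 10130 UMIs in PS19 and 1748 in PZKO excitatory nuclei. All levels below are CPM, the UMIs of a gene per 1000000 UMIs of the class in that library, with 95% Poisson intervals. Differences are log2 ratios of PZKO over PS19 CPM with 95% Clopper-Pearson intervals in square brackets. Both kinds of interval cover counting error only.

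The class with the highest level differed between the genes, and for 8 of the 10 genes it was the same class in both libraries. Only for *Per3*, *Arntl* and *Clock* were the intervals of the highest and the second class apart. For the other genes they overlapped in both libraries, so the class named as highest below is not set apart from the next. For the activators, *Clock* had its highest level in oligodendrocytes, at 292 CPM (281 to 303) in PS19 and 286 CPM (276 to 296) in PZKO. No other class exceeded 177 CPM in either library. The lowest *Clock* level was in ependymal cells in PS19 (66.1 CPM) and in astrocytes in PZKO (83.2 CPM). *Arntl*, its partner, showed another order, with its highest level in excitatory neurons at 73.5 CPM (71.3 to 75.7) in PS19 and 88.6 CPM (86.8 to 90.5) in PZKO. Astrocytes followed with 58.5 and 68.3 CPM. Few *Arntl* UMIs were counted in the small vascular classes. These were 2 and 11 in vascular leptomeningeal cells (VLMC), 3 and 8 in pericyte/mural cells and 10 and 37 in endothelial cells. As levels they were 4.45 and 9.07 CPM, 10.0 and 18.1 CPM, and 9.35 and 28.7 CPM. OPCs (12.8 and 13.2 CPM) and the choroid plexus (9.97 and 12.3 CPM) had levels in that range too.

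**Figure D1:**
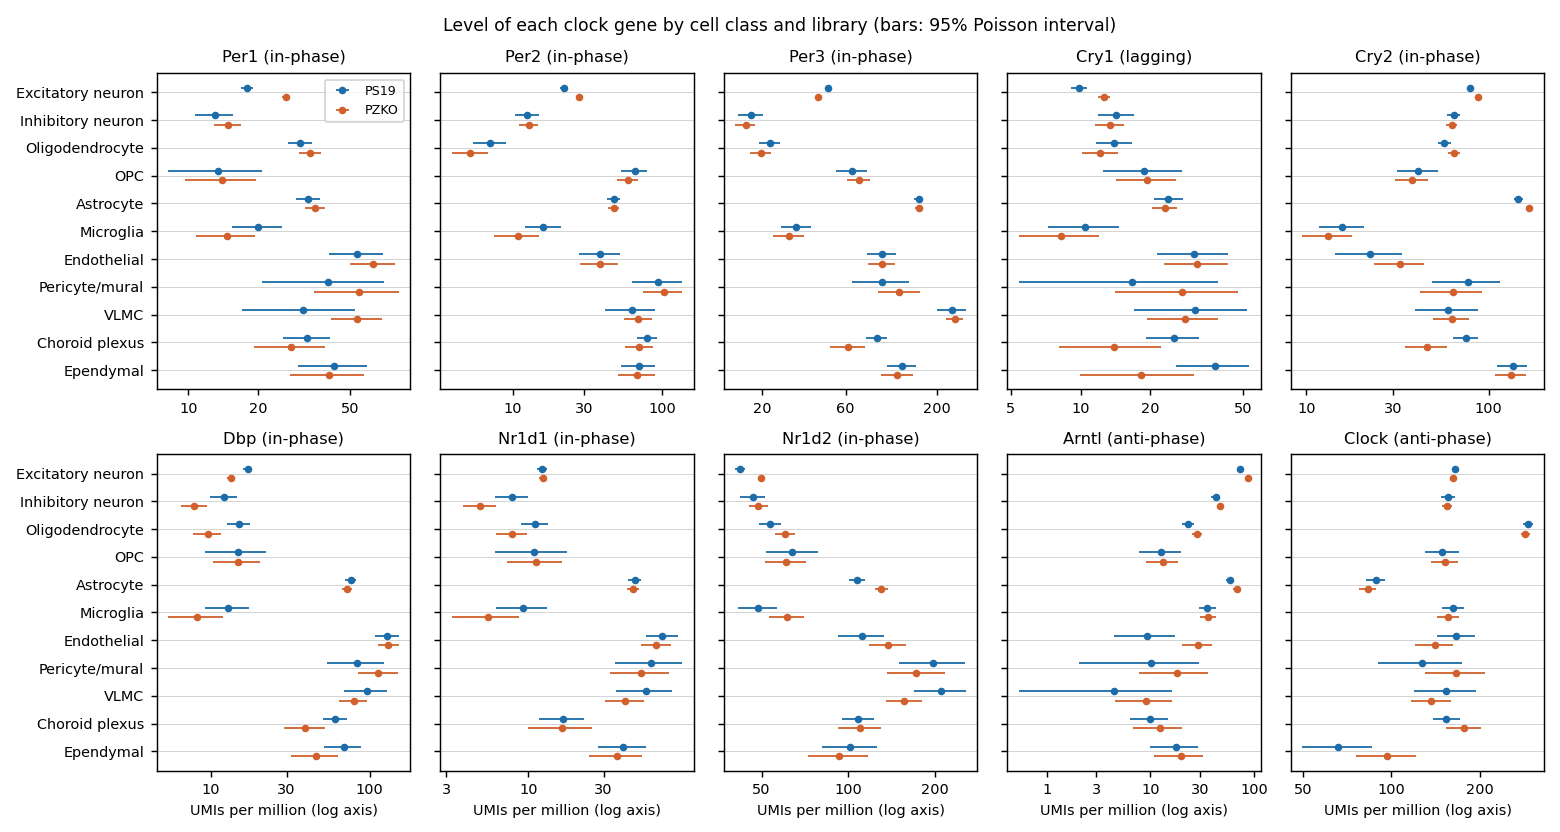
Level of each of the 10 clock genes in 11 cell classes, as CPM on a log axis that differs between panels. Points are the PS19 (blue) and PZKO (orange) libraries and bars are 95% Poisson intervals. *Dbp* lies above 60 CPM in PS19 in astrocytes and in the vascular, choroid and ependymal classes and below 18 CPM in neurons, oligodendrocytes, OPCs and microglia, while *Arntl* is highest in excitatory neurons and *Clock* in oligodendrocytes.

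The repressors and the output gene *Dbp* were highest outside the neurons. *Per3* was highest in VLMC, at 245 CPM (201 to 295) in PS19 and 255 CPM (228 to 286) in PZKO, and next in astrocytes, at 158 CPM in both libraries. Its lowest level was in inhibitory neurons, at 17.1 and 16.0 CPM. *Per2* was highest in pericyte/mural cells, at 93.7 and 102 CPM, and lowest in oligodendrocytes, with 65 and 54 UMIs, a 13.4-fold and a 19.8-fold range in CPM. *Per1* was highest in endothelial cells, at 53.3 and 62.8 CPM, with a 4.10-fold range over the classes in PS19 and a 4.48-fold range in PZKO. *Cry2* was highest in astrocytes, at 146 and 167 CPM, and lowest in microglia, at 15.7 and 13.1 CPM. *Cry1* levels lay close together, and all 10 pairs of neighbouring classes had overlapping intervals in both libraries. Its range was 3.84-fold in PS19 and 3.85-fold in PZKO.

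*Dbp* and the *Nr1d* genes were likewise highest in vascular classes. *Dbp* had 129 CPM (108 to 152) in PS19 endothelial cells and 131 CPM (112 to 152) in PZKO endothelial cells. In inhibitory neurons it had 12.1 and 7.86 CPM. The levels of *Dbp* in VLMC (95.6 CPM), pericyte/mural cells (83.7 CPM), astrocytes (75.9 CPM), ependymal cells (68.4 CPM) and choroid plexus (60.7 CPM) in PS19 formed an upper group whose neighbours had overlapping intervals. *Nr1d1* was highest in endothelial cells, at 71.0 and 65.2 CPM, and lowest in inhibitory neurons, at 7.87 and 4.91 CPM. *Nr1d2* was highest in VLMC in PS19 (209 CPM) and in pericyte/mural cells in PZKO (172 CPM), and its lowest classes were the excitatory neurons in PS19 (42.2 CPM) and the inhibitory neurons in PZKO (48.6 CPM). Across the 22 pairs of class and library, the gene whose log2 level ran most like that of *Dbp* among 2242 genes was *Nr1d2*, with a Pearson correlation of 0.90, followed by *Timp3* (0.88) and 0610043K17Rik (0.88). For *Arntl* they were *Hivep3* (0.78), *Grin2b* (0.75) and *Gria1* (0.74) of 5541 genes, and *Arntl* reached 20 UMIs in only 13 of the 22 pairs. The 2 libraries of a class share their cell type, so these points are not independent and the correlations are a description.

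Between the libraries, the clock genes did not move as a block in the large classes. In excitatory neurons, *Per1* had 1096 UMIs in PS19 and 2590 in PZKO, or 18.0 and 26.3 CPM, a log2 ratio of 0.55 [0.45, 0.65]. *Per2* had 21.8 and 27.5 CPM (0.34 [0.24, 0.43]) and *Cry1* 9.83 and 12.6 CPM (0.36 [0.22, 0.51]). *Dbp* was lower in PZKO, with 1043 and 1324 UMIs, or 17.1 and 13.4 CPM (-0.35 [-0.46, -0.23]). In-phase genes thus lay on both sides of 0, with *Per3* at -0.18 [-0.25, -0.11], *Nr1d1* at 0.02 [-0.11, 0.16], *Cry2* at 0.15 [0.10, 0.20] and *Nr1d2* at 0.24 [0.17, 0.31]. *Arntl* was higher, with 73.5 and 88.6 CPM (0.27 [0.22, 0.32]), and *Clock* lay close to 0, with 165 and 162 CPM (-0.03 [-0.07, 0.00]). A log2 ratio of at least 0.32 was reached by 3 of the 10 genes upward and 1 downward, where 11.0% of the 20044 measured genes were that much higher and 21.9% that much lower. The intervals of 6 of the 10 lay above 0 and those of 2 below 0, against 17.2% and 33.3% of all measured genes. Intervals narrow as UMIs rise, and *Cry1*, with the fewest of the 10, had 600 and 1244 UMIs. Many measured genes have fewer, so shares by interval, here and below, are not compared at like depth. None of the 10 was 1.5-fold lower, against 8.59% of all measured genes. A gene counts as measured with at least 20 UMIs over both libraries.

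**Figure D2:**
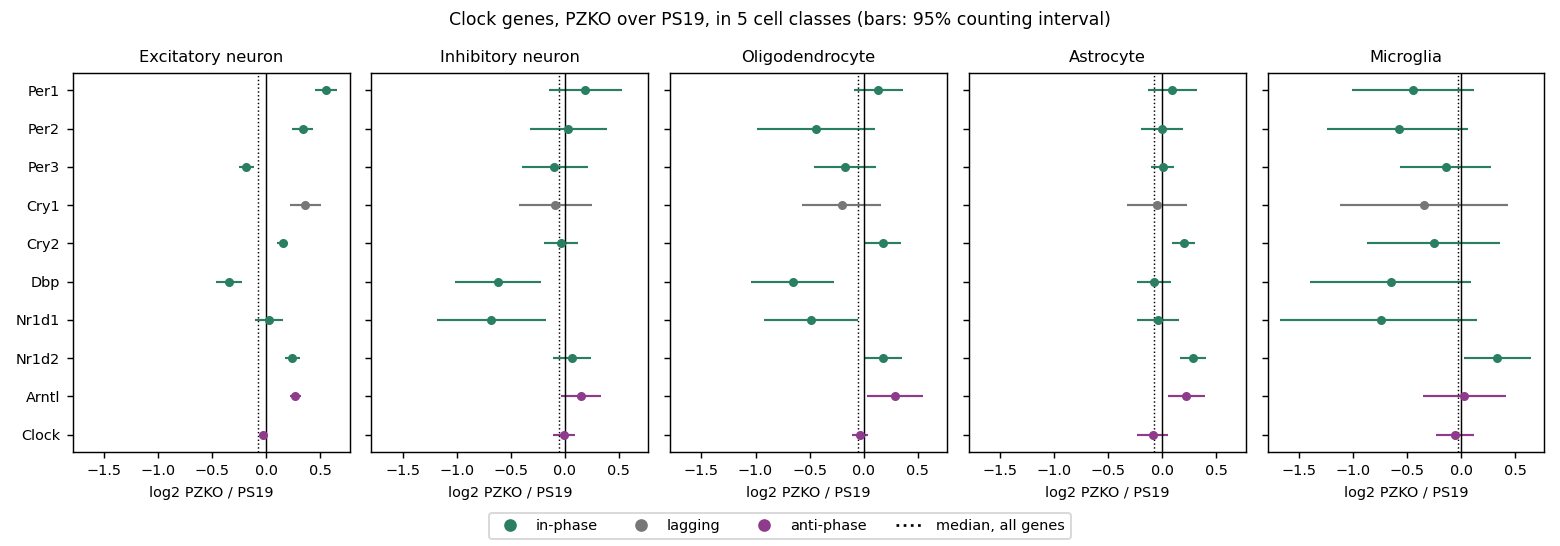
Log2 ratio of PZKO over PS19 for the 10 clock genes in the 5 largest classes. Bars are 95% counting intervals, the solid line is 0 and the dotted line the median of all measured genes. *Dbp* is below 0 in excitatory and inhibitory neurons and oligodendrocytes and near 0 in astrocytes, and *Clock* is near 0 in all 5 panels.

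*Dbp* was lower in the PZKO library in several classes and close to 0 in others. In inhibitory neurons it had 106 and 112 UMIs, or 12.1 and 7.86 CPM (-0.62 [-1.02, -0.22]). In oligodendrocytes it had 140 and 100 UMIs, or 15.1 and 9.57 CPM (-0.65 [-1.04, -0.27]). In microglia it had 42 and 27 UMIs (-0.64 [-1.40, 0.09]), an interval that holds 0. In astrocytes and endothelial cells, which had high *Dbp* levels, the intervals held 0, with 75.9 and 71.9 CPM (-0.08 [-0.23, 0.08]) in astrocytes and 129 and 131 CPM (0.02 [-0.31, 0.36]) in endothelial cells. *Nr1d1*, which represses *Arntl*, was lower too in inhibitory neurons, with 69 and 70 UMIs (-0.68 [-1.18, -0.18]), and in oligodendrocytes, with 102 and 82 UMIs (-0.48 [-0.92, -0.05]). In astrocytes it had 47.3 and 45.9 CPM (-0.04 [-0.24, 0.15]). Barcodes with under 600 UMIs, which serve here as a rough sample of free RNA, held 10 *Dbp* UMIs among 99832 in PS19 and 2 among 66635 in PZKO. With that profile subtracted at 5% of the UMIs, the *Dbp* ratio was -0.02 in excitatory neurons, -0.16 in inhibitory neurons and -0.32 in oligodendrocytes. That profile rests on these few UMIs, so how much of the *Dbp* difference is free RNA could not be settled at this depth.

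*Arntl* was above 0 in all 11 classes, from 0.03 [-0.35, 0.41] in microglia to 1.62 [0.58, 2.79] in endothelial cells. In VLMC and pericyte/mural cells it had under 20 UMIs. The endothelial value was 0.73 with every nucleus weighted equally and 4.41 under the stricter filter on nuclei. Less the median of genes of like length, the microglial value was -0.07 and the OPC value -0.007. The interval of *Arntl* lay above 0 in 4 classes. Beside the excitatory neurons these were oligodendrocytes, with 23.1 and 28.3 CPM (0.29 [0.03, 0.55]), astrocytes, with 58.5 and 68.3 CPM (0.22 [0.06, 0.39]), and endothelial cells, with 9.35 and 28.7 CPM. Of 8547 genes with at least 20 UMIs in 9 or more classes, 1.39% were higher in all 11 classes and 5.34% lower in all 11. The cut of 9 is the number of classes in which *Arntl* itself had 20 UMIs. That share covers genes of every length, while *Arntl* is over 60 kb, a band whose median ratio was above 0 in every class. *Clock* had intervals that hold 0 in 10 of the 11 classes, with the exception of ependymal cells, where it had 56 and 74 UMIs (0.55 [0.03, 1.08]). The share of the 10 genes past a log2 ratio of 0.32 was as follows. In inhibitory neurons, 0 of 10 genes were that much higher (9.55% of all measured genes) and 2 lower (21.4%), and the same 2, *Dbp* and *Nr1d1*, were 1.5-fold lower (8.72%). In oligodendrocytes, 0 were higher (9.28%), 3 were lower (22.4%) and 1 was 1.5-fold lower (9.31%). In astrocytes none passed in either direction (9.07% and 25.2% of all measured genes). In microglia, 1 was higher (12.9%), 5 were lower (21.0%) and 2 were 1.5-fold lower (8.76%).

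The microglia counts were thin, and only 1 of those ratios had an interval away from 0. It was *Nr1d2*, which was higher in PZKO, with 158 and 200 UMIs, or 48.5 and 61.1 CPM (0.33 [0.03, 0.64]). *Per1* had 65 and 48 UMIs (-0.44 [-1.01, 0.12]), *Per2* 52 and 35 UMIs (-0.58 [-1.24, 0.07]) and *Nr1d1* 30 and 18 UMIs (-0.74 [-1.67, 0.15]). *Nr1d2* was also higher in astrocytes, with 107 and 130 CPM (0.28 [0.16, 0.40]), and in oligodendrocytes, with 53.4 and 60.4 CPM (0.18 [0.01, 0.35]). *Cry2*, a repressor of CLOCK and ARNTL, showed the same in those classes, at 0.20 [0.09, 0.30] in astrocytes and 0.18 [0.01, 0.34] in oligodendrocytes. In VLMC, by contrast, *Nr1d2* was lower in PZKO, with 94 and 190 UMIs, or 209 and 157 CPM (-0.42 [-0.78, -0.04]). In the choroid plexus, 4 of the 10 genes had intervals below 0, as did 9.23% of all measured genes, and they were *Cry1* (58 and 17 UMIs), *Cry2* (173 and 56), *Dbp* (140 and 48) and *Per3* (209 and 76). Their ratios were -0.85 [-1.73, -0.05], -0.71 [-1.17, -0.27], -0.63 [-1.13, -0.15] and -0.54 [-0.94, -0.16]. That class had 261 nuclei in PS19 and 94 in PZKO.

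The higher *Per1* and *Per2* of the excitatory class were not seen within the dentate, CA1 and CA3 groups, where the intervals held 0 or lay below it. In dentate granule-like nuclei *Per1* had 11.1 and 11.6 CPM (0.07 [-0.27, 0.41]), in CA1-like nuclei 19.3 and 18.0 CPM (-0.10 [-0.39, 0.18]) and in CA3-like nuclei 12.1 and 10.4 CPM (-0.22 [-0.62, 0.18]). In the other excitatory nuclei it had 23.0 and 33.4 CPM (0.54 [0.41, 0.67]). *Per2* showed the same split, with 0.14 [-0.12, 0.40], -0.23 [-0.49, 0.03] and -0.34 [-0.66, -0.01] in the dentate, CA1 and CA3 groups against 0.46 [0.34, 0.59] in the others. *Cry1* differed in the same way, at 0.04, -0.03 and 0.17, all with intervals that hold 0, against 0.28 [0.11, 0.45]. The PZKO library had more of its excitatory nuclei in the other group, where *Per1* and *Cry1* had their highest levels among the 4 groups, whereas *Per2* was highest in the CA1 group in PS19 (24.6 CPM, against 23.4 CPM in the other group). The *Arntl* ratio of the whole class, 0.27, was above those of the dentate (0.19), CA1 (0.17) and other (0.13) groups and below that of the CA3 group (0.51). Over the alternative settings this class ratio of *Arntl* ranged from 0.10 to 0.37. With all excitatory clusters weighted equally, the ratio was 0.39 for *Per1*, 0.35 for *Per2* and 0.08 for *Cry1*. The part of the class make-up in these ratios was not tested beyond this weighting.

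**Figure D3:**
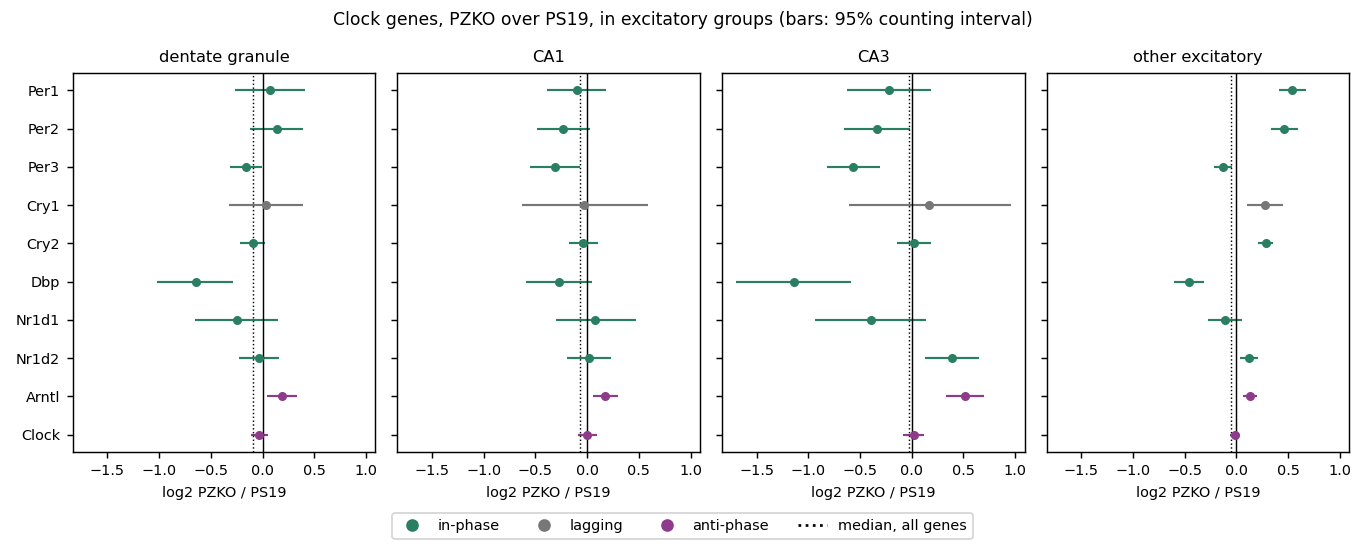
Log2 ratio of PZKO over PS19 for the 10 clock genes in 4 groups of excitatory nuclei. Bars are 95% counting intervals, the solid line is 0 and the dotted line the median of all measured genes. The intervals of *Per1* and *Per2* lie above 0 in the other excitatory nuclei and hold 0 or lie below it in the other 3 groups, whereas *Dbp* is below 0 and *Arntl* above 0 in the CA3-like group.

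Among the 4 groups, the medians of the phases lay farthest apart in CA3-like nuclei. *Dbp* had 75 and 45 UMIs there, or 9.19 and 4.18 CPM (-1.14 [-1.70, -0.58]), and *Per3* 33.9 and 22.9 CPM (-0.56 [-0.82, -0.31]). *Arntl* had 44.8 and 64.0 CPM (0.51 [0.33, 0.70]). *Nr1d2*, which is counted with the in-phase genes, went the other way, with 23.3 and 30.5 CPM (0.39 [0.13, 0.65]). In these nuclei 2 of the 10 genes were past 0.32 upward (13.7% of all measured genes), 4 were past it downward (18.9%) and 1, *Dbp*, was 1.5-fold lower (7.52%). The dentate granule-like nuclei had *Dbp* at 200 and 93 UMIs (-0.65 [-1.02, -0.29]), *Per3* at -0.16 [-0.31, -0.01] and *Arntl* at 0.19 [0.04, 0.34]. There 0 genes were past 0.32 upward (7.48%) and 1 downward (23.1%). In CA1-like nuclei *Per3* was at -0.31 [-0.55, -0.07] and *Arntl* at 0.17 [0.05, 0.29], *Dbp* had an interval that holds 0 (-0.27 [-0.59, 0.05]), and none passed 0.32 in either direction (8.91% of all measured genes higher and 19.9% lower). With the free RNA profile subtracted, the *Dbp* ratio was -0.64 in the CA3 group, -0.24 in the dentate group and 0.10 in the CA1 group, while *Per3* and *Arntl* kept their signs in all 3 groups.

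Among single excitatory clusters the direction of *Dbp* was the most even. It was lower in PZKO in all 12 clusters with at least 50 nuclei in each library, from -1.14 to -0.04, and its interval lay below 0 in 7. Of 9796 genes with at least 20 UMIs in each of these clusters, 3.77% were lower in all 12. That share covers genes of every length, while *Dbp* is a short gene, and the free RNA profile was not subtracted in single clusters. *Per1* ranged from -0.90 to 0.97, with its interval above 0 in 5 clusters and below 0 in 1. The highest *Per1* ratio was in the cluster led by Gm48530 and *Exph5*, and the lowest in that led by *Atp10b* and *Vwc2l*. *Arntl* was higher in 10 of the 12, from -0.29 to 0.51, with its interval above 0 in 4 and below 0 in 1. *Clock* stayed between -0.04 and 0.07, and each of its intervals held 0.

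**Figure D4:**
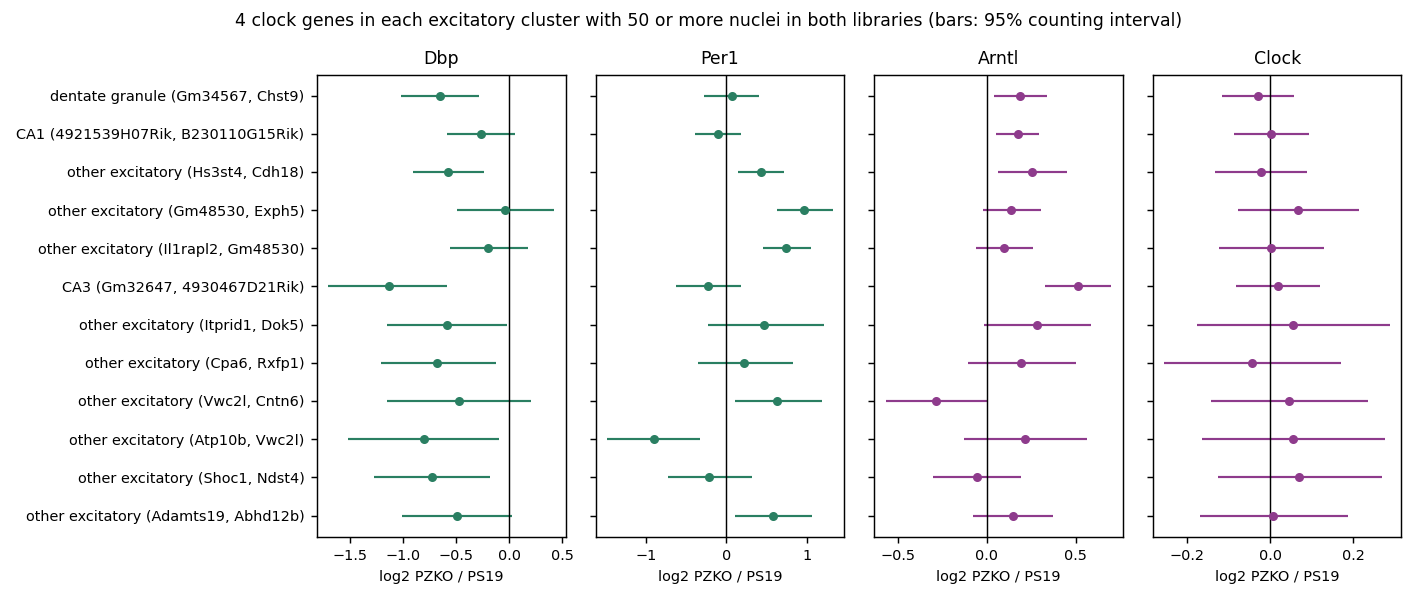
Log2 ratio of PZKO over PS19 for *Dbp*, *Per1*, *Arntl* and *Clock* in each of 12 excitatory clusters, which are labelled by their group and their leading genes. Bars are 95% counting intervals and the horizontal axis differs between panels. All 12 *Dbp* points lie below 0, the *Per1* points lie from -0.90 to 0.97, and the *Clock* points stay within 0.07 of 0.

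Read as phases, the medians lay apart in some classes and together in others. In excitatory neurons the in-phase median was 0.15 and the anti-phase median 0.12, against a median of -0.08 over all measured genes. In oligodendrocytes they were -0.17 and 0.13 (all genes -0.05), in inhibitory neurons -0.04 and 0.07 (-0.05), in astrocytes 0.00 and 0.07 (-0.08) and in microglia -0.44 and -0.01 (-0.03). In the dentate, CA1 and CA3 groups the in-phase medians were -0.09, -0.10 and -0.34 and the anti-phase medians 0.08, 0.09 and 0.27. In the other excitatory nuclei the order was the reverse, with an in-phase median of 0.12 and an anti-phase median of 0.06. Both anti-phase genes were measured in 9 of the 11 classes, and their median was above the in-phase median in 8 of these, with the excitatory neurons as the exception. With 2 genes this median is their mean. *Clock* alone was below the in-phase median in excitatory neurons, astrocytes (-0.09) and endothelial cells (-0.24). It was above it in inhibitory neurons, oligodendrocytes, OPCs, microglia, choroid plexus and ependymal cells. Both anti-phase genes are over 60 kb and all in-phase genes are shorter, and in every class genes over 60 kb had the higher median ratio. Less the median of genes of like length, the order turned in astrocytes and OPCs and the medians were nearly equal in inhibitory neurons. In astrocytes the in-phase median was then 0.19, with *Arntl* at 0.14 and *Clock* at -0.17. In the CA1 group *Arntl* was then at 0.11 and *Clock* at -0.06, within the in-phase genes, which ran from -0.24 (*Per3*) to 0.26 (*Nr1d1*). The dentate group likewise had *Arntl* at 0.14 and *Clock* at -0.08, with in-phase genes from -0.42 (*Dbp*) to 0.29 (*Per1*). In VLMC and pericyte/mural cells *Arntl* had under 20 UMIs and the anti-phase value is that of *Clock* alone. The classes all come from the same 2 pools. Outside the excitatory class several medians are not firm in sign. In oligodendrocytes the in-phase median was 0.0039 with the free RNA profile subtracted, and the anti-phase median was -0.032 with *Cry1* counted as anti-phase.

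Ratios also differed with gene length. In every one of the 5 large classes the median ratio of all genes under 20 kb was below that of genes over 60 kb, at -0.19 and 0.06 in excitatory neurons and -0.20 and 0.10 in oligodendrocytes. *Dbp*, *Nr1d1* and *Per1* are in the short band and *Arntl* and *Clock* in the long band. Less the median of its band, *Dbp* was at -0.16 in excitatory neurons, -0.45 in oligodendrocytes, -0.42 in dentate granule-like nuclei and -0.96 in CA3-like nuclei, and at 0.16 in astrocytes. The other short genes lay above their band in excitatory neurons, with *Per1* at 0.74 and *Nr1d1* at 0.21. In oligodendrocytes *Per1* was at 0.34 and *Nr1d1* at -0.28. *Arntl* less its band was at 0.21 in excitatory neurons, 0.19 in oligodendrocytes, 0.14 in dentate granule-like nuclei, 0.39 in CA3-like nuclei and 0.14 in astrocytes, and *Clock* was below its band in all of these. The part of length in the differences was not tested beyond this subtraction.

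**Figure D5:**
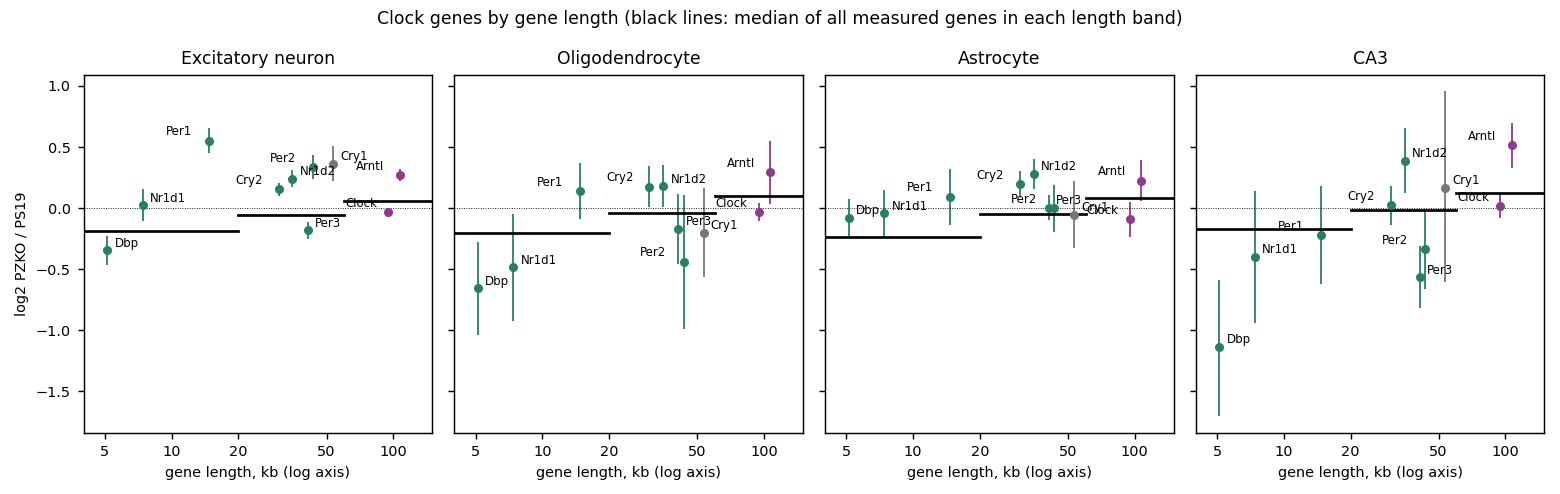
Log2 ratio of PZKO over PS19 for the 10 clock genes against gene length in kb on a log axis, in excitatory neurons, oligodendrocytes, astrocytes and CA3-like nuclei. Bars are 95% counting intervals and black lines are the medians of all measured genes under 20 kb, from 20 to 60 kb and over 60 kb. The medians climb with length in each panel, and *Dbp* lies below the median of its band in all panels but that of astrocytes.

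The wider clock list held ratios on both sides of 0 as well. Of 6 further in-phase genes, *Bhlhe41* (DEC2, a repressor of E-box genes) was lower in all 5 large classes, with intervals below 0 in each. Its ratio was -0.32 [-0.41, -0.22] in excitatory neurons, -0.40 [-0.54, -0.26] in astrocytes and -0.47 [-0.65, -0.29] in microglia, and in CA1-like nuclei it had 337 and 309 UMIs (-0.63 [-0.86, -0.40]). For the genes of this wider list, neither the median of genes of like length nor the free RNA profile was subtracted. *Bhlhe40* (DEC1) had 119 and 83 UMIs in oligodendrocytes (-0.69 [-1.11, -0.27]) but was at 0.28 [0.16, 0.40] in excitatory neurons. *Ciart*, a repressor of CLOCK and ARNTL, had 108 and 46 UMIs in the dentate group (-0.77 [-1.31, -0.26]) and intervals below 0 in the CA1 and CA3 groups too, while it was at 0.06 [-0.09, 0.21] in all excitatory neurons. *Hlf*, a relative of *Dbp*, had 44 and 68 UMIs in microglia (0.62). In excitatory neurons 2 of these 6 genes had intervals above 0 and 3 below 0, where 17.2% and 33.3% of all measured genes did. *Tef* and *Usp2* did not pass 1.5-fold in any class where they had 100 UMIs.

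*Npas2*, a paralog of *Clock* that also pairs with ARNTL, had the most UMIs of the further anti-phase genes described here. In excitatory neurons it had 8020 and 20009 UMIs, or 131 and 203 CPM (0.63 [0.59, 0.67]). Within the groups its ratio was 0.28 [0.11, 0.45] in dentate, 0.34 [0.24, 0.44] in CA1 0.98 [0.74, 1.22] in CA3-like and 0.32 [0.28, 0.36] in the other excitatory nuclei, and in astrocytes it was 0.47 [0.36, 0.58]. The interval of *Npas2* lay above 0 in each of the 4 groups, and in 3 of them its ratio was well under that of the whole class. *Arntl2*, a paralog of *Arntl*, was at -0.04 [-0.11, 0.03] in excitatory neurons and -0.19 [-0.50, 0.11] in astrocytes. *Nfil3*, a repressor at D-boxes, was at 0.65 [0.28, 1.04] in the other excitatory nuclei and, with 29 and 15 UMIs, at -0.96 [-1.96, -0.01] in microglia. Of 8 further clock factors, *Rora*, an activator at ROR elements, was higher in oligodendrocytes (0.59 [0.45, 0.73]) and microglia (0.60 [0.28, 0.93]), and *Rorb* in ependymal cells (0.89 [0.37, 1.43]). The 8 did not rise as a set in oligodendrocytes, where their median was 0.03. There 1 was past 0.32 upward (9.28% of all measured genes) and 3 downward (22.4%). In microglia 7 were measured, with 1 past 0.32 upward (12.9%) and 0 downward (21.0%).

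Other lists moved between the libraries beside the clock genes. Neuronal activity genes had a median of 0.79 in excitatory neurons, 0.72 in dentate granule-like nuclei and 0.83 in the other excitatory nuclei, but of -0.40 in CA1-like and -0.45 in CA3-like nuclei. In the dentate group 4 of the 6 measured activity genes were higher and 2 lower. *Per1* is itself induced by neuronal activity. Its ratio was 0.54 in the other excitatory nuclei, 0.07 in the dentate group and -0.10 and -0.22 in the CA1 and CA3 groups. In inhibitory neurons the activity median was 0.82, with intervals above 0 for 3 of the 7 measured genes, and *Per1* was at 0.19 [-0.15, 0.53]. The lists that follow were likewise chosen as lists that can move *Per1* or move with it. Genes induced by glucocorticoids had a median of -0.36 in excitatory neurons and -0.28 in astrocytes. In inhibitory neurons, microglia and oligodendrocytes it was -0.14, -0.17 and -0.04. A temperature list had medians of -0.39 in excitatory neurons and -0.32 in astrocytes. It pools *Cirbp* and *Rbm3* with the heat shock genes *Hspa8*, *Hsph1*, *Hsp90aa1* and *Hspa1a*, so its median cannot be read as a response to heat or to cold. The 79 cytosolic ribosomal protein genes, a sign of cytoplasmic RNA among nuclei, had medians from -0.54 to -0.45 in the 5 large classes, with all 79 below 0 in each. The part of these lists in the ratios of the clock genes was not tested.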

How the data were processed

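Per the labels, hippocampal nuclei were sequenced with 10x Genomics 3′ chemistry, and the authors deposited unnormalized UMI counts per gene and nucleus. The build is mm10. The labels name Cell Ranger 7.0.1, while the file header names 8.0.1. The methods also describe corrections for free RNA and doublets, which the deposited counts do not contain. The files hold 0 further columns of per-sample values.

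Barcodes under 600 UMIs, under 300 genes or over 5% mitochondrial UMIs were left out. The 876 and 821 nuclei with the highest Scrublet scores were removed, at 0.8% per 1000 nuclei, since the automatic threshold called 589 and 0. Both libraries were clustered together with scanpy 1.11.5 and leidenalg 0.10.2 (2000 variable genes without the clock genes, 30 components, 20 neighbours, resolution 1). Clusters were named by marker score. Its thresholds were chosen with the clusters in view. The members and gene lists were chosen with earlier results of these data known.

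UMIs were summed per class and library (numpy 2.4.6, pandas 2.3.3, Python 3.11.15), with intervals from scipy 1.17.1. The ratio and its interval were tested on simulated data. Those counts were drawn from the Poisson model that the interval assumes, so the test covers the computation and not the spread between nuclei, mice or pools. Further clock genes were named where they had at least 100 UMIs over both libraries and a fold of at least 1.5, and 1 gene that met this rule is not reported here. Likeness was the Pearson correlation of log2(CPM + 1). Alternatives used edgeR 4.0.16 and DESeq2 1.42.0 (R 4.3.3) for scaling factors alone, other filters, clusterings and weights. Subtracting the free RNA profile in the region groups and choroid plexus was chosen after seeing the data.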

Additional observations from a re-analysis of the deposited data

How the results depend on the processing

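The in-phase median in excitatory neurons, 0.15 as reported, was 0.23 with edgeR TMM scaling, 0.25 with DESeq2 size factors, 0.079 with equal weights of the excitatory clusters and 0.21 less the median of genes of like length. The anti-phase median, 0.12 as reported, was 0.20, 0.21, 0.038 and 0.061 under the same 4 settings and 0.27 with *Cry1* counted as anti-phase. The cause of these shifts was not tested beyond the construction of each setting. Both excitatory medians kept their sign in 29 of 29 alternative values. In other classes medians crossed 0. The in-phase median ranged from -0.30 to 0.0039 in oligodendrocytes, from -0.079 to 0.034 in inhibitory neurons and from -0.023 to 0.19 in astrocytes. The anti-phase median ranged from -0.032 to 0.21, from -0.0089 to 0.14 and from -0.053 to 0.17 in the same order, and from -0.11 to 0.054 in microglia. For the 42 single ratios that were tried and whose interval excluded 0, the sign was kept in 227 of 227 alternative values. Many of these 42 are from the region groups and the choroid plexus, where only the free RNA subtraction was tried. The ratios of *Nr1d2* in VLMC and of *Cry1* and *Clock* in ependymal cells also had intervals that excluded 0. They were not among the 42. Some settings also changed little, so their values could hardly differ. Leiden resolution 0.5, for example, again gave 2850 PS19 and 3104 PZKO excitatory nuclei. Ratios whose interval held 0 did turn in places. *Arntl* was at -0.01 in inhibitory neurons and microglia with every nucleus weighted equally and at -0.07 in microglia less the median of genes of like length, and *Dbp* in CA1-like nuclei was at 0.10 with the free RNA profile subtracted. *Dbp* in excitatory neurons was at -0.02 with that profile subtracted and at -0.58 with equal weights of the clusters. *Arntl* in endothelial cells, with 10 and 37 UMIs, ranged from 0.73 to 4.41. Microglia could not be named with Leiden resolution 0.5, with the clock genes left in the clustering, or with the PZKO library clustered alone, so these settings gave no microglial value. No paired analysis was possible because each genotype has 1 library, and for the same reason no replicate could be left out. Depth limits the microglial, vascular, choroid plexus and ependymal ratios most, since many rest on under 100 UMIs.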

Other observations

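The unnamed clusters, which entered no comparison of classes, held 102 *Dbp* UMIs in PS19 and 97 in PZKO, or 29.6 and 13.6 CPM, a log2 ratio of -1.12 [-1.54, -0.71]. *Nr1d1* had 68 and 88 UMIs there (-0.68 [-1.15, -0.20]). The intervals of the other 8 clock genes held 0, with *Arntl* at 0.09 [-0.19, 0.38] and *Clock* at 0.02 [-0.12, 0.16]. These intervals cover counting error only. The unnamed clusters are a mix. A single one held 357 of the 554 PS19 and 255 of the 511 PZKO nuclei. Its nuclei had a median of 0.12 of the median UMIs of their library, and *Ttr* was among its leading genes. The cluster led by *Cpa6* and *Ano2* held 102 PS19 and 155 PZKO nuclei, with a median of 3.73 of the library median. Its scores for inhibitory and excitatory neurons were too close for a name. The ratios above are from summed UMIs, so nuclei with many UMIs weigh more in them than their number shows. Another, led by *Rgs9* and *Rarb*, held 22 PS19 nuclei and 1 PZKO nucleus.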
